A study of Mus musculus with 4 samples.

Results

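The genes described here run or control the making of cholesterol and of fatty acids, and many of them are classic targets of the SREBP transcription factors. They were taken by function, as a list of 30 gene symbols. All 30 were found among the 23259 genes that carried a value. The list has 3 branches: 5 regulators, 16 genes of cholesterol synthesis and 9 genes of fatty acid synthesis, elongation and desaturation. The libraries were made from total RNA of macrophages grown out of the bone marrow of C57BL/6 mice, 7 weeks old, and kept with IL-4 for 24 h. There were 2 libraries whose genotype label is Sema6D-/-, a homozygous loss of the membrane semaphorin gene Sema6d, and 2 whose label is wild type. IL-4, a cytokine that turns macrophages towards an alternatively activated state, was given in both groups, so these data hold no macrophages without it. The labels do not name the allele, and they do not say whether libraries of a genotype came from separate mice, so each p-value measures the spread between these libraries only.

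SREBP proteins are made as precursors in the membrane of the endoplasmic reticulum. The escort protein Scap carries them to the Golgi when sterols are low, where proteases free the part that enters the nucleus. When sterols are plentiful the Insig proteins hold Scap back. The form encoded by Srebf2 acts mainly on cholesterol synthesis and the forms encoded by Srebf1 mainly on fatty acid synthesis. In macrophages these routes supply membrane lipids, and sterol intermediates and unsaturated fatty acids made there also act on nuclear receptors such as the LXRs.

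The values are FPKM, fragment numbers scaled to transcript length and library size, and each library was estimated to hold 8400000 to 9400000 fragments. Sema6d was at 0.106 and 0.315 FPKM in the Sema6D-/- libraries and at 0.166 and 0.389 FPKM in the wild type libraries, so it did not separate the genotypes; which part of the gene the allele removes is not stated in the labels. The sample titles begin with W under the label Sema6D-/- and with K under the label wild type. The genotype labels set the groups here, and each direction is that of those labels. Whether the labels were exchanged was not tested, and if they were, each direction given here would reverse. Macrophage markers such as Csf1r and Cd68 were high in all libraries, and 0 of the 12 on that list were at 0 in all of them. They summed to 7311 to 7471 FPKM in Sema6D-/- libraries and 8085 to 8373 FPKM in wild type libraries, with 1 of 11 tested markers higher and 4 lower. Neutrophil markers summed to 661 to 802 FPKM in Sema6D-/- libraries and 255 to 265 FPKM in wild type libraries, with 0 at 0 in all libraries. Of 11 tested neutrophil markers, 6 were called higher and 1 lower. Elane, Mpo and Retnlg averaged 1 FPKM or more only through their Sema6D-/- values, and Mpo is among the 6. For comparison, 4.8% of all tested genes were called higher and 4.91% lower. Markers of mast cells and basophils summed to 6.34 to 10.7 FPKM in Sema6D-/- libraries and 1.23 to 1.87 FPKM in wild type libraries, with 2 of 7 at 0 in all 4 libraries. The 2 tested, Mcpt8 and Prss34, were called higher and averaged 1 FPKM or more only through their Sema6D-/- values. Stromal and adipocyte markers summed to 6.02 to 6.86 FPKM in Sema6D-/- libraries and 4.78 to 9.2 FPKM in wild type libraries, with 2 of 11, the adipocyte genes Lep and Cidec, listed at 0 throughout. The adipocyte gene Adipoq was at 0.43 and 0.311 FPKM in Sema6D-/- libraries and listed at 0 in both wild type libraries, and Plin1 was at 0.0642 FPKM in Sema6D-/- replicate 2 and listed at 0 in the others. The part of these cells in the differences below was not tested. In bulk RNA, fewer cells that express a gene and less of its RNA per cell cannot be told apart.

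The levels of the 30 genes spanned the range from Elovl1, with a mean of 87.5 FPKM over the 4 libraries, to Idi1, with 0.272 FPKM. After Elovl1, which lengthens very long saturated fatty acids, came Fads1 at 41.9 FPKM and Elovl5 at 34.0 FPKM, both enzymes of polyunsaturated fatty acid synthesis. Srebf2 at 27.2 FPKM was the highest regulator and Ebp, a sterol isomerase, at 24.0 FPKM the highest gene of cholesterol synthesis. The enzymes that build the saturated chain were much lower, with Fasn at 3.35 FPKM and Acaca at 1.69 FPKM. Idi1, Scd1 and Elovl6 had means under 1 FPKM and were left out of the test with the other low genes, which left 27 tested members. By estimated depth and transcript length, Idi1 rested on about 5 to 9 fragments a library, Elovl6 on 9 to 23 and Scd1 on 20 to 38, against 460 to 610 for Hmgcs1 and 710 to 1500 for Scd2.

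**Figure D1:**
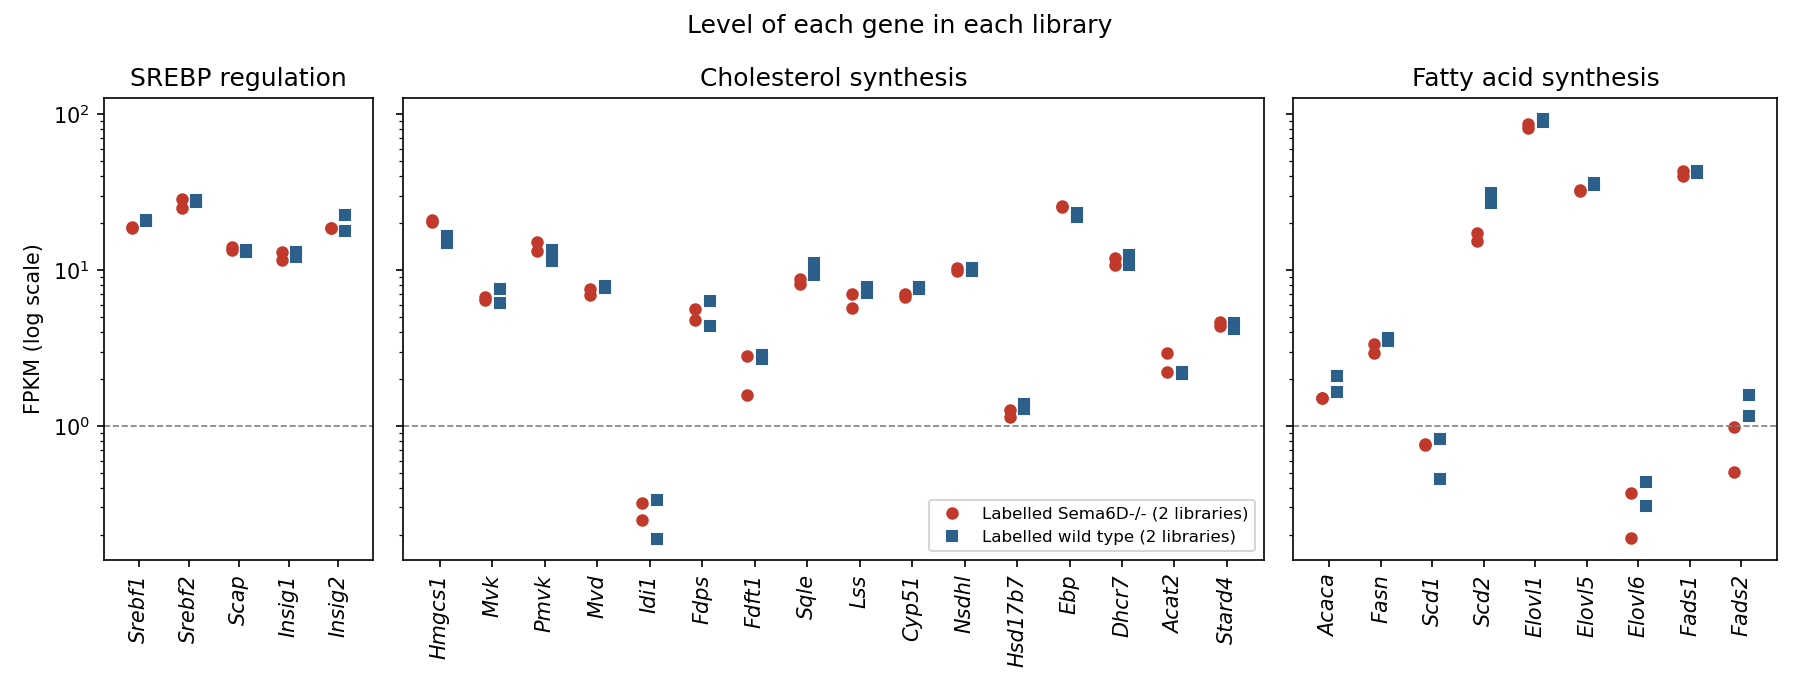
FPKM on a log scale for each of the 30 genes in the 4 libraries, Sema6D-/- libraries as circles and wild type libraries as squares, with a dashed line at 1 FPKM. The symbols of a gene lie close together for most genes; Scd2 lies lower and Hmgcs1 higher in both Sema6D-/- libraries, and Idi1, Scd1 and Elovl6 lie under the line.

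Most of this programme did not pass the test between the genotypes, and 1 enzyme in each of the synthesis branches was called. Hmgcs1, which makes HMG-CoA early in the mevalonate route, was called higher. Scd2, a desaturase that turns saturated into monounsaturated fatty acids, was called lower. With limma on log2(FPKM + 1) and Benjamini-Hochberg adjustment over 10115 genes, 1 of 27 tested members was called higher (3.7%) and 1 lower (3.7%). Over all tested genes 4.8% were called higher and 4.91% lower, so the share of members called was no larger than that of genes at large. Without adjustment, 2 members (7.41%) were higher and 3 (11.1%) lower at p under 0.05, beside 12.9% and 12.2% of all tested genes. The 95% interval of the difference lay within 0.5 on the log2 scale in both directions for 19 of the 27 members (70.4%), as it did for 76.6% of all tested genes.

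**Figure D2:**
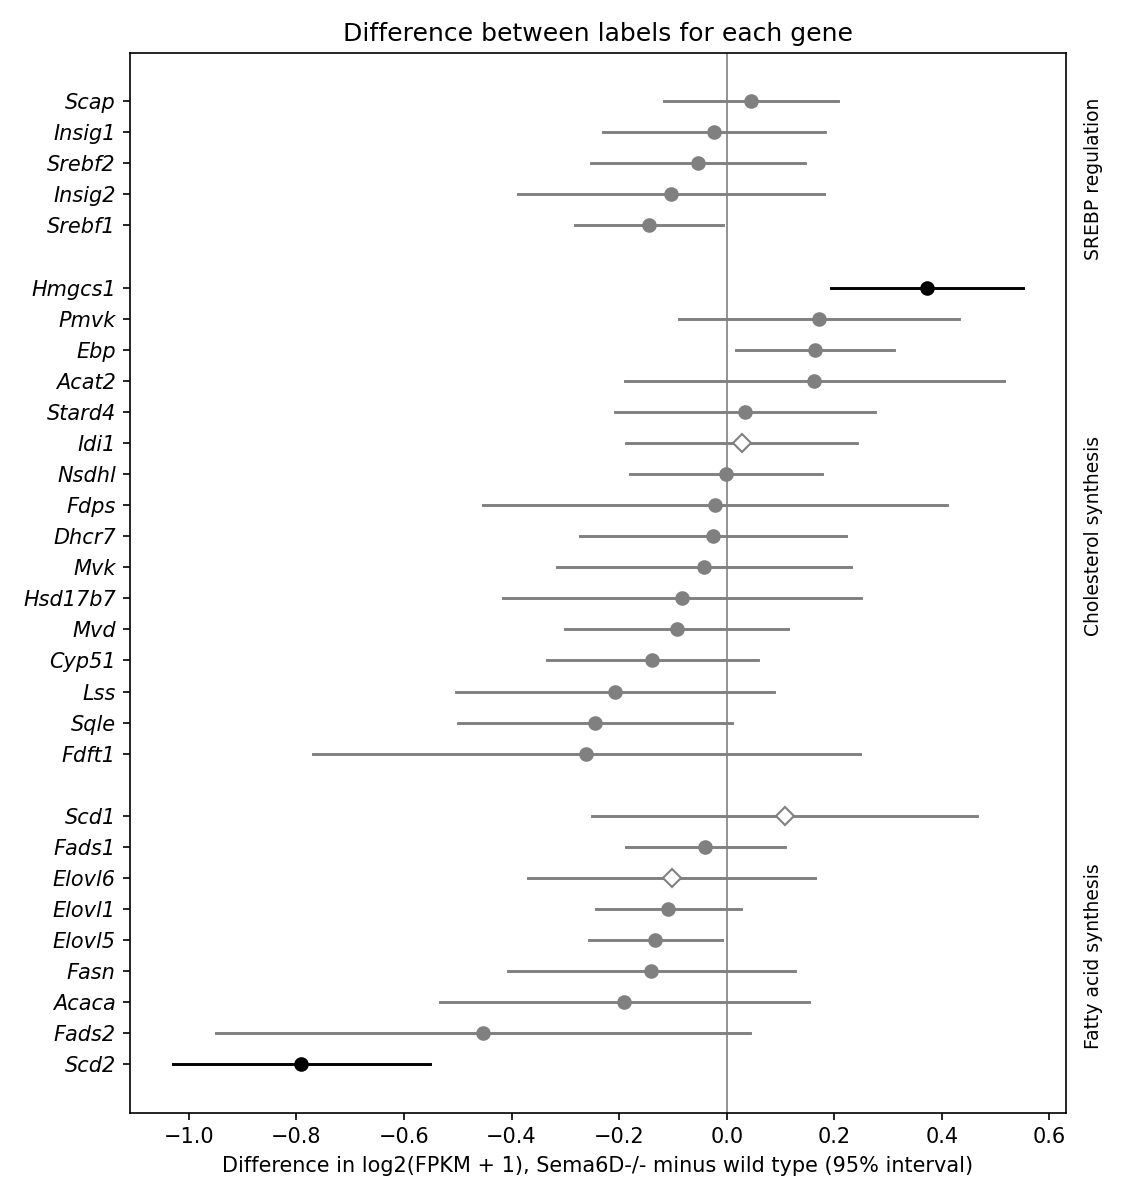
Difference in log2(FPKM + 1), Sema6D-/- minus wild type, with its 95% interval for each of the 30 genes by branch. Black marks genes called at an adjusted p under 0.05, grey the others, and open diamonds the 3 genes under 1 FPKM, fitted without the filter. The intervals of Hmgcs1 (0.19 to 0.55) and Scd2 (-1.03 to -0.55) lie clear of 0, and most others cross it.

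The regulators were at near levels in the 2 genotypes. Srebf1, whose products drive fatty acid synthesis, was at 18.8 and 18.6 FPKM in Sema6D-/- libraries and at 20.9 and 20.7 FPKM in wild type libraries. Both Sema6D-/- libraries lay below both wild type libraries, by a difference of -0.14 ± 0.06 (SE) on the log2 scale that did not pass (limma adjusted p = 0.185). Its 95% interval of -0.28 to -0.01 limits a decrease to a small size. Srebf2, the regulator of cholesterol synthesis, was at 24.8 and 28.6 FPKM in Sema6D-/- libraries and 28.1 and 27.3 FPKM in wild type libraries, and the groups overlapped. Scap, the escort protein, was at 13.5 and 14.01 FPKM in Sema6D-/- libraries and at 13.5 and 13.1 FPKM in wild type libraries, and Srebf2 and Scap alike were not called. Insig1, a retention protein that is itself a sensitive SREBP target, was at 11.6 and 13 FPKM in Sema6D-/- libraries and 12.1 and 12.97 FPKM in wild type libraries. Its difference of -0.02 ± 0.08 (SE) had an interval of -0.23 to 0.18. Insig2, a second retention protein, was at 18.6 and 18.7 FPKM in Sema6D-/- libraries, inside the span of 17.8 and 22.6 FPKM in wild type libraries. None of the 5 regulators was called by limma, and 1, Srebf1, had an unadjusted p under 0.05, as did 25.1% of all tested genes. Their median difference was -0.05, beside 0.00 for all tested genes.

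Cholesterol synthesis starts with the mevalonate route, and an early enzyme of it carried the sole call of the branch. Hmgcs1, on chromosome 13 from 119690351 to 119708260 in the GRCm38 assembly, was at 20.4 and 20.8 FPKM in Sema6D-/- libraries and at 14.9 and 16.6 FPKM in wild type libraries. Both Sema6D-/- libraries lay above both wild type libraries, and the means of 20.6 ± 0.30 FPKM in Sema6D-/- libraries and 15.7 ± 1.16 FPKM in wild type libraries (SD, n = 2 each) differed 1.31-fold. The difference of 0.37 ± 0.07 (SE) passed with a limma adjusted p = 0.0352, and 542 of the 10115 tested genes had a difference at least as high. The call was lost with no filter on low values (limma adjusted p = 0.0816) or no trend in the model (0.0698), and without Sema6D-/- replicate 1 (0.194), Sema6D-/- replicate 2 (0.193) or wild type replicate 1 (0.107), while the difference stayed between 0.30 and 0.44 over the fits without 1 library.

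The bases before the start of Hmgcs1 are shown because this gene was called higher, beside those of Insig1, a regulator whose groups overlapped. Both stretches end at the base before the RefSeq gene start, on the plus strand of GRCm38.p6, at chr13:119690101-119690350 and chr5:28071162-28071411. Capitals mark matches on either strand to a sterol regulatory element (SRE) core TCACNCCAC, to CCAAT and GGGCGG, motifs bound by the cofactors NF-Y and Sp1, and to the E-box CACGTG.
Hmgcs1: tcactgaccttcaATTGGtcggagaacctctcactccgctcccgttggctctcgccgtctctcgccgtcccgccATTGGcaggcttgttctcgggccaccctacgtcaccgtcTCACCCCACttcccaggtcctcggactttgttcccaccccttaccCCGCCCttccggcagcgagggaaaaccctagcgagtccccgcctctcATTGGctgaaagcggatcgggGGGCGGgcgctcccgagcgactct
Insig1: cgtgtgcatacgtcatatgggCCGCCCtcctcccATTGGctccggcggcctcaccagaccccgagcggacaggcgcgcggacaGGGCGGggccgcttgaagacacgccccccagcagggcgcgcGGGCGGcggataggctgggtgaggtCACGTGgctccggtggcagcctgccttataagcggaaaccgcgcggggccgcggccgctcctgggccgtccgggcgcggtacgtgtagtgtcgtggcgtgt
Of 23 members with a promoter window in the RefSeq table, Hmgcs1 alone held the SRE core in the 250 bases before a start, against 1.22% of 27025 genes. The CCAAT letters were found in 18 of the 23 members and in 37.5% of all genes, and the GC box likewise in 18 members and in 35.4% of all genes. The E-box was found in 5 members, Insig1 among them, and in 6.86% of all genes. None of these 4 motifs overlap each other within the stretches printed. Scd2, the other called member, had no promoter window. Other forms of the SRE and bases outside the 250 were not searched. These are matches of letters and not measured binding.

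The other enzymes of the mevalonate route did not pass. Mvk, mevalonate kinase, was at 6.75 and 6.44 FPKM in Sema6D-/- libraries and 6.17 and 7.52 FPKM in wild type libraries. Pmvk, which adds a further phosphate, was at 15.1 and 13.3 FPKM in Sema6D-/- libraries and at 11.5 and 13.5 FPKM in wild type libraries, and its groups overlapped. Mvd, the decarboxylase that yields isopentenyl diphosphate, was at 7.58 and 6.9 FPKM in Sema6D-/- libraries, below 7.9 and 7.66 FPKM in wild type libraries, with an interval of -0.30 to 0.11. The genes that follow were measured with less certainty. Idi1, the isomerase, was at 0.248 and 0.319 FPKM in Sema6D-/- libraries and 0.189 and 0.333 FPKM in wild type libraries, too few fragments to show a modest difference. Of the 50-base runs of the longest Idi1 transcript, 21.3% also occur in transcripts of other genes, so its level is uncertain. Fdps, which makes farnesyl diphosphate, was at 4.77 and 5.62 FPKM in Sema6D-/- libraries and 4.36 and 6.35 FPKM in wild type libraries, and 11.7% of its runs are shared. Acat2, a cytosolic thiolase that supplies acetoacetyl-CoA, was at 2.94 and 2.22 FPKM in Sema6D-/- libraries and 2.15 and 2.21 FPKM in wild type libraries. Its neighbouring copy Acat3 holds 45.9% of its runs and was itself listed at no more than 0.0713 FPKM in any library, so the split of reads between them is uncertain.

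The enzymes that turn farnesyl diphosphate into squalene and close the sterol rings had lower means in Sema6D-/- libraries without a call. Fdft1, squalene synthase, was at 2.81 and 1.58 FPKM in Sema6D-/- libraries and 2.67 and 2.84 FPKM in wild type libraries. Only Sema6D-/- replicate 2 lay low, and without it the difference of -0.26 became 0.02. The span of Fdft1 overlaps that of Ctsb on the opposite strand, an abundant cathepsin gene at 3390 and 3219 FPKM in Sema6D-/- libraries and 2657 and 2759 FPKM in wild type libraries, and the strand setting of the quantification is not given in the sources used here. Sqle, the rate-limiting squalene epoxidase, was at 8.14 and 8.69 FPKM in Sema6D-/- libraries, below 11.1 and 9.29 FPKM in wild type libraries. Its difference was -0.24 ± 0.10 (SE), with an interval of -0.50 to 0.01 and a limma adjusted p = 0.213. Lss, lanosterol synthase, was at 5.66 and 7.04 FPKM in Sema6D-/- libraries and at 7.82 and 7.1 FPKM in wild type libraries. Cyp51, which removes a methyl group of lanosterol, was at 7.06 and 6.68 FPKM in Sema6D-/- libraries and at 7.52 and 7.8 FPKM in wild type libraries. For Sqle, Lss and Cyp51 both Sema6D-/- libraries lay below both wild type libraries, an order seen in 27.4% of all tested genes. The interval of each of these differences included 0.

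The late sterol enzymes showed no common direction. Nsdhl, a sterol dehydrogenase of the demethylation complex, was at 10.3 and 9.82 FPKM in Sema6D-/- libraries and 9.91 and 10.3 FPKM in wild type libraries, a difference of 0.00 with an interval of -0.18 to 0.18. Its partner Hsd17b7 was at 1.26 and 1.14 FPKM in Sema6D-/- libraries and at 1.29 and 1.37 FPKM in wild type libraries; the groups did not overlap, and the difference of -0.08 had an interval of -0.42 to 0.25. Ebp, the isomerase that moves a bond within the ring, was at 25.6 and 25.3 FPKM in Sema6D-/- libraries, above 21.9 and 23.3 FPKM in wild type libraries. Its difference of 0.16 ± 0.06 (SE) did not pass (limma adjusted p = 0.16; unadjusted p = 0.0337). Dhcr7, which catalyses a closing reduction to cholesterol, was at 12.02 and 10.8 FPKM in Sema6D-/- libraries and 10.8 and 12.6 FPKM in wild type libraries. Stard4, a carrier that moves cholesterol between membranes, was at 4.36 and 4.62 FPKM in Sema6D-/- libraries and at 4.16 and 4.57 FPKM in wild type libraries, and its groups overlapped. Over the 15 tested genes of the branch the median difference was -0.03, with 5 differences above 0 and 10 below.

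Fatty acid synthesis held the largest difference of the list on the log2(FPKM + 1) scale, that of Scd2; with a pseudocount of 0.1, Fads2 was at -0.85 and Scd2 at -0.82. Scd2, on chromosome 19 from 44293676 to 44306864 in GRCm38, encodes a stearoyl-CoA desaturase that makes oleate and palmitoleate. It was at 15.4 and 17.2 FPKM in Sema6D-/- libraries and at 31.2 and 26.7 FPKM in wild type libraries. Every Sema6D-/- value lay under every wild type value, and the means of 16.3 ± 1.23 FPKM in Sema6D-/- libraries and 29.0 ± 3.16 FPKM in wild type libraries (SD, n = 2 each) stood at 0.563-fold. The difference of -0.79 ± 0.10 (SE) passed with a limma adjusted p = 0.0104, and 181 of the 10115 tested genes had a difference at least as low. The call was lost without Sema6D-/- replicate 1 (limma adjusted p = 0.0979) or Sema6D-/- replicate 2 (0.0613), where the difference was -0.72 and -0.86.

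Scd1, the closest paralog of Scd2, was far lower than Scd2, and its groups overlapped. It was at 0.76 and 0.756 FPKM in Sema6D-/- libraries and at 0.456 and 0.828 FPKM in wild type libraries. In a fit without the filter its difference was 0.11 ± 0.13 (SE), with an interval of -0.25 to 0.47. The difference between the paralogs' changes was not tested. Scd3 was listed at 0 in 3 libraries and at 0.0308 FPKM in wild type replicate 1, and Scd4 at no more than 0.0687 FPKM. Scd2 was thus the highest of these paralogs by FPKM in all 4 libraries, and 4.0% of its 50-base runs occur in transcripts of other genes.

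The enzymes that commit carbon to fatty acids had lower means in Sema6D-/- libraries and were not called. Acaca, acetyl-CoA carboxylase, was at 1.51 and 1.5 FPKM in Sema6D-/- libraries and 1.65 and 2.08 FPKM in wild type libraries. The annotated gene Gm5182 holds 52.6% of the Acaca runs, so its level is uncertain. Fasn, fatty acid synthase, was at 3.35 and 2.94 FPKM in Sema6D-/- libraries and 3.64 and 3.49 FPKM in wild type libraries, a difference of -0.14 ± 0.11 (SE) with an interval of -0.41 to 0.13. For both genes the Sema6D-/- libraries lay below the wild type libraries, as in 27.4% of all tested genes, and the 95% interval of each difference included 0.

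Elongases and the front-end desaturases were measured more precisely where they were abundant. Elovl1 was at 81.6 and 86.8 FPKM in Sema6D-/- libraries and 92.9 and 88.8 FPKM in wild type libraries, a difference of -0.11 ± 0.05 (SE). Elovl5, which lengthens polyunsaturated fatty acids, was at 32.3 and 32.4 FPKM in Sema6D-/- libraries and at 36.0 and 35.2 FPKM in wild type libraries. Its difference of -0.13 ± 0.05 (SE), with an interval of -0.26 to -0.01, did not pass after adjustment (limma adjusted p = 0.176; unadjusted p = 0.04). Elovl6, which lengthens palmitate to stearate, the substrate of the desaturases, was at 0.192 and 0.37 FPKM in Sema6D-/- libraries and 0.438 and 0.308 FPKM in wild type libraries. Fads1, the delta-5 desaturase, was at 39.8 and 42.8 FPKM in Sema6D-/- libraries and 43.3 and 41.6 FPKM in wild type libraries, and its interval of -0.19 to 0.11 leaves room for a small change only. Fads2, the delta-6 desaturase that acts before it and lies in the same cluster on chromosome 19, was at 0.508 and 0.98 FPKM in Sema6D-/- libraries and at 1.16 and 1.59 FPKM in wild type libraries. These values rest on about 13 to 47 fragments, and the difference of -0.45 ± 0.20 (SE) did not pass (limma adjusted p = 0.234). Fads2 passed the filter of 1 FPKM only through its wild type values.

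The branches were then set side by side. Of the 7 tested genes of fatty acid synthesis, 7 had a difference below 0, with a median of -0.14, beside 4 of 5 regulators with a median of -0.05, 10 of 15 genes of cholesterol synthesis with a median of -0.03, and 49.1% of all tested genes with a median of 0.00. With Scd1 and Elovl6, which lay under the filter, 8 of 9 were below 0. In 6 of the 7 both Sema6D-/- libraries lay below both wild type libraries, as in 5 of 15 genes of cholesterol synthesis, 1 of 5 regulators and 27.4% of all tested genes. Fads2 is among the 7 and among the 6, and it passed the filter of 1 FPKM only through its wild type values. The opposite order, with both Sema6D-/- libraries higher, was seen in 3 genes of cholesterol synthesis (Hmgcs1, Ebp and Acat2), in 0 regulators and 0 tested genes of fatty acid synthesis, and in 28.8% of all tested genes. The 7 genes remained below 0 under each other pseudocount, scaling and model tried for them, and without Sema6D-/- replicate 1 the count was 6, Fads1 being at 0.01. With a mean of at least 5 FPKM, 4 were tested and 4 were below 0. These counts describe a short list chosen with results known and carry no test of their own; of the 7 genes, limma called Scd2, and the branches' differences from each other were not tested.

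**Figure D3:**
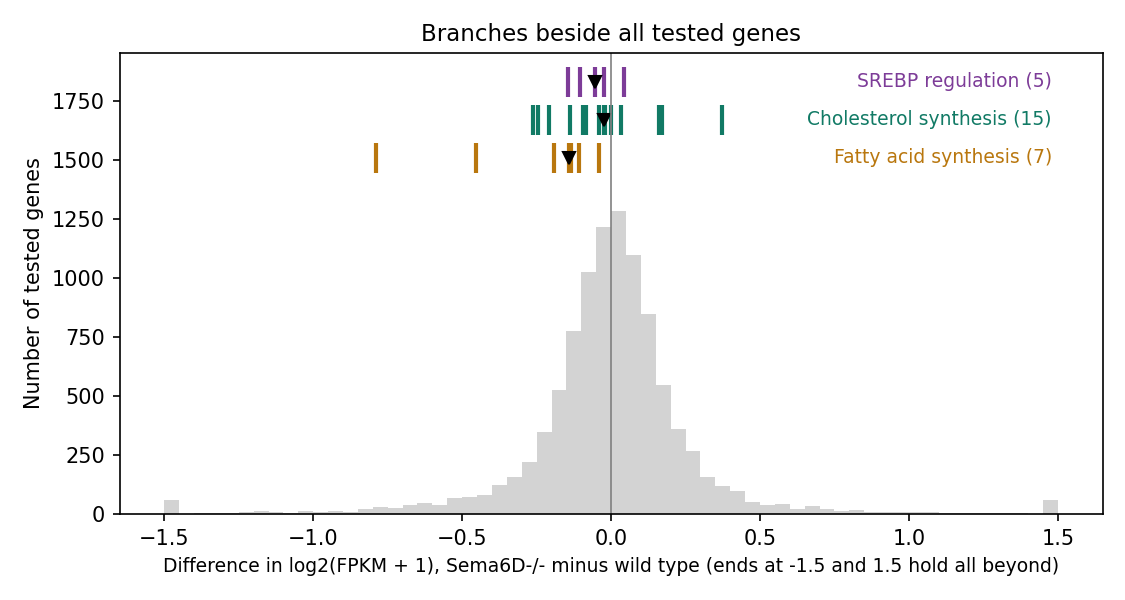
Histogram of the difference in log2(FPKM + 1), Sema6D-/- minus wild type, over 10115 tested genes, with ticks above it for the tested genes of each branch and a triangle at each branch's median. The ticks of fatty acid synthesis lie left of 0 with a median of -0.14, and those of the other branches lie on both sides of 0. Fads2, among the fatty acid ticks, passed the filter only through its wild type values.

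Summed levels weight the genes by abundance. The 9 fatty acid genes summed to 175 and 186 FPKM in Sema6D-/- libraries and 211 and 201 FPKM in wild type libraries. Without Elovl1, the most abundant, the sums were 93.8 and 98.9 FPKM in Sema6D-/- libraries and 118 and 112 FPKM in wild type libraries. Both sums were lower in both Sema6D-/- libraries, and both include the called gene Scd2. Scd2 was at 15.4 and 17.2 FPKM in Sema6D-/- libraries and at 31.2 and 26.7 FPKM in wild type libraries. Sums without Scd2 were not made. The 16 cholesterol genes summed to 135 and 131 FPKM in Sema6D-/- libraries and 124 and 133 FPKM in wild type libraries, and the 5 regulators to 87.3 and 92.9 FPKM in Sema6D-/- libraries and 92.4 and 96.7 FPKM in wild type libraries, and in both of these branches the groups overlapped.

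Other genes of these pathways were examined as a list of 69, of which 56 were tested. It covers SREBP processing and its cofactors, sterol synthesis, esterification and transport, and the supply and use of fatty acids. Of the 56, limma called 2 higher (3.57%) and 2 lower (3.57%), again beside 4.8% and 4.91% of all tested genes. Soat2, which esterifies cholesterol and is best known from liver and intestine, was at 1.78 and 1.94 FPKM in Sema6D-/- libraries and at 0.42 and 0.256 FPKM in wild type libraries. Both Sema6D-/- libraries were higher (difference 1.10 ± 0.15 (SE), limma adjusted p = 0.0145), although Soat2 passed the filter only through them. Its call was lost without Sema6D-/- replicate 1 (limma adjusted p = 0.0731) or replicate 2 (0.0743). It was the sole call among 18 tested genes of the sterol group, beside 1 higher and 2 lower among 25 tested genes of the fatty acid group. Cyb5r3, the reductase that feeds electrons to desaturases through cytochrome b5, was at 127 and 135 FPKM in Sema6D-/- libraries and at 90.8 and 90.4 FPKM in wild type libraries. Its difference of 0.52 ± 0.05 (SE) had a limma adjusted p = 0.00544, and it was called in all 4 fits that left out 1 library. It thus went the other way from Scd2, a desaturase that takes up those electrons.

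The called genes of fatty acid use were lower. Acot7, an acyl-CoA thioesterase, was at 43.0 and 43.8 FPKM in Sema6D-/- libraries and at 58.4 and 54.6 FPKM in wild type libraries (difference -0.37 ± 0.05 (SE), limma adjusted p = 0.0171). Of 77 tested genes within 5 Mb of Acot7 on chromosome 4, 2 were called higher and 6 lower (10.4% in either direction). Over all tested genes 4.8% were called higher and 4.91% lower (9.72% in either direction). Acsl4, which activates arachidonate, was at 28.1 and 28.1 FPKM in Sema6D-/- libraries and at 33.9 and 33.2 FPKM in wild type libraries (difference -0.25 ± 0.05 (SE), limma adjusted p = 0.041). Both groups were tight and did not overlap, and the call was lost in each fit without 1 library, where the adjusted p reached 0.202, with no filter (0.0613) and with no trend (0.0912). Acot7 kept its call without wild type replicate 2 and lost it without any other library, at adjusted p up to 0.133, and with no trend (0.0546).

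Among the 13 further regulators and cofactors limma called 0. At an unadjusted p under 0.05, 3 were higher (23.1%) and 2 lower (15.4%), beside 12.9% and 12.2% of all tested genes. Nfya, a subunit of the cofactor NF-Y, was at 51.9 and 54.8 FPKM in Sema6D-/- libraries and at 43.2 and 46.8 FPKM in wild type libraries (limma adjusted p = 0.0753). Rnf145, a ubiquitin ligase of the sterol response that acts on Scap, was at 17.4 and 16.6 FPKM in Sema6D-/- libraries and at 18.9 and 19.6 FPKM in wild type libraries (limma adjusted p = 0.162). The groups of both genes did not overlap, and neither difference passed. For context in the same libraries, Pparg, the lipid-sensing nuclear receptor named in the series title, was at 113 and 114 FPKM in Sema6D-/- libraries and at 80.1 and 89.3 FPKM in wild type libraries, a called increase (limma adjusted p = 0.0184). The neutrophil marker S100a8 was at 295 and 232 FPKM in Sema6D-/- libraries and at 72.2 and 79.1 FPKM in wild type libraries. S100a9 was at 343 and 289 FPKM in Sema6D-/- libraries and at 98.8 and 89.6 FPKM in wild type libraries. Of the 11 tested markers on that list, 6 were called higher and 1 lower, beside 4.8% and 4.91% of all tested genes. Mpo, 1 of the 6, passed the filter of 1 FPKM only through its Sema6D-/- values. The lower marker, Csf3r, was at 22.8 and 20.4 FPKM in Sema6D-/- libraries and at 36.1 and 34.2 FPKM in wild type libraries. Whether cells with these markers bear on the 6 called lipid genes was not tested.

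**Figure D4:**
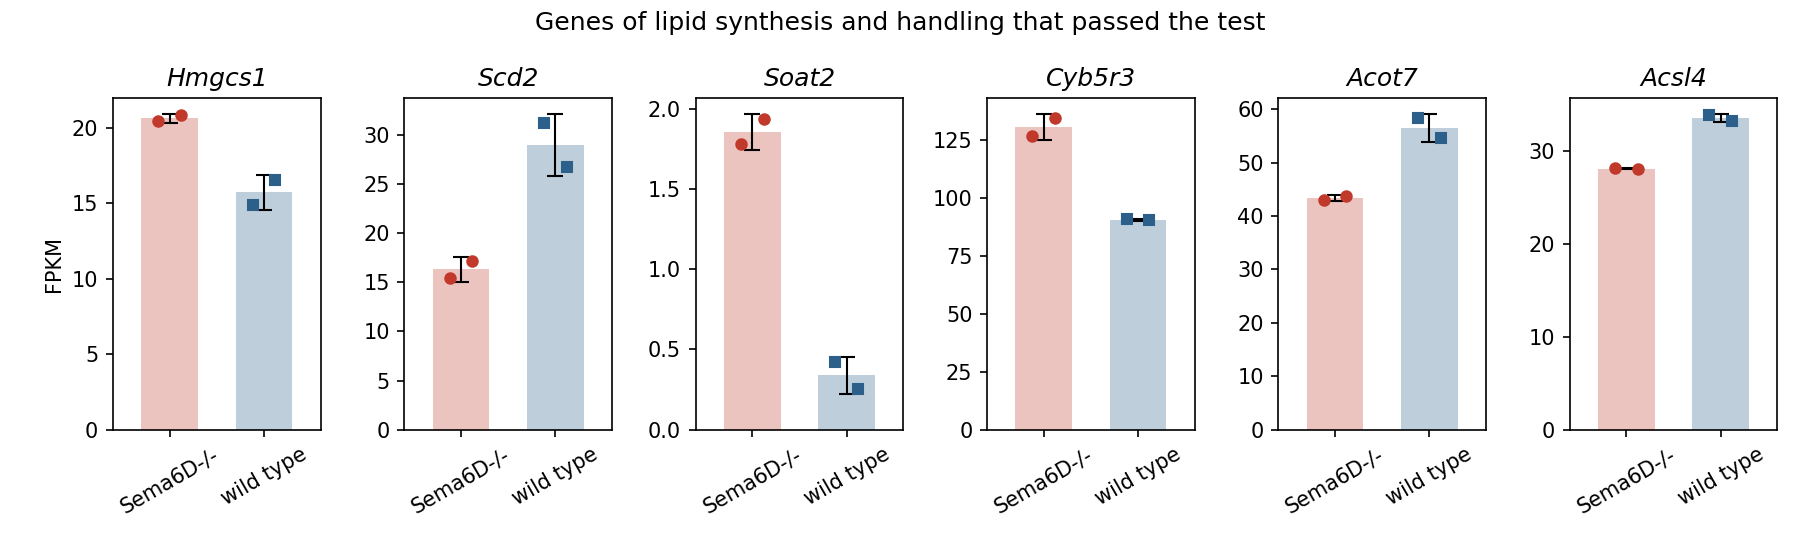
FPKM of the 6 genes that passed the test, among the 30 listed genes (Hmgcs1 and Scd2) and the 69 others of these pathways (Soat2, Cyb5r3, Acot7 and Acsl4). Bars are means and whiskers SDs of 2 libraries, points are libraries, Sema6D-/- at left and wild type at right. In each panel the points of the genotypes do not overlap. Soat2 passed the filter of 1 FPKM only through its Sema6D-/- values.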

How the data were processed

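The 4 libraries were analysed as deposited. The values are FPKM that the authors made, and per the submitters' processing notes the tools were TopHat2 2.0.13, Bowtie2 2.2.3, SAMtools 0.1.19 and Cuffnorm 2.2.1 with the build mm10. Cuffnorm scales FPKM between libraries. Library preparation was strand-specific, per the labels' protocols; the sources used here give no annotation, strand setting or rule for multiply mapped reads. A value at or near 0 may not mean absent RNA, since Gapdh was listed at no more than 0.104 FPKM in any library. The reason for the low Gapdh values was not tested.

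From these values, log2(FPKM + 1) was fitted in limma 3.58.1 (R 4.3.3; eBayes with trend, two-sided) over the 10115 genes that averaged 1 FPKM or more, Sema6D-/- minus wild type, with Benjamini-Hochberg adjustment over all of them and a threshold of 0.05. Differences on this scale understate changes of low genes. The members under the filter were fitted over all genes with a value above 0, and the alternatives, tried for the members and for the named genes of the further lists where a gene was tested under them, were a pseudocount of 0.1 or 5, no filter or a mean of 5 FPKM, quantile or median-of-ratios scaling, robust or trend-free eBayes, a replicate block, and each library left out. The test was checked on simulated data drawn with the model's own fitted spread, which cannot show how it holds for these libraries. Depth was estimated from the lowest listed values and GENCODE transcript lengths, so fragment numbers are approximate. Positions, promoters and the assembly are RefSeq's GRCm38.p6; 50-base runs come from GENCODE M21 transcripts.

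The members and the further lists were chosen with earlier results of these data known. Named genes were all 30 members, every called gene of the 3 further lists (or the 2 with the smallest p where fewer than 2 were called), Sema6d, Pparg, S100a8 and S100a9; Gapdh, Ctsb, Acat3, Scd3, Scd4 and the markers were named after their values were seen. Of the genes this rule names, 1 is not reported here. Of 163 list symbols, 162 were found, 9 under an older symbol. Marker lists without a result in the report were lymphoid (0 of 7 tested), dendritic (0 higher and 1 lower of 2) and erythroid (1 higher and 0 lower of 2).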

Additional observations from a re-analysis of the deposited data

How the results depend on the processing

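Differences of Hmgcs1 and Scd2 kept their direction under all 13 alternatives. Scd2 was called under 9 of 9 settings other than a library left out, and Hmgcs1 under 6 of 9. Members called higher numbered 0 without a filter, without the trend in eBayes and with the replicate block, where Hmgcs1 had adjusted p = 0.0816, 0.0698 and 0.0554 at an unchanged difference of 0.37. Over the fits without 1 library, members called numbered 0 to 1 higher and 0 to 1 lower, the other pathway genes 1 to 2 higher and 0 to 1 lower, and all tested genes 72 to 276 higher and 87 to 290 lower. The fits without 1 library have fewer degrees of freedom. Other pathway genes called higher numbered 1 with a mean of at least 5 FPKM, where Soat2 is not tested. Those called lower numbered 1 with no filter, 0 without the trend, 4 with robust estimation and 1 with the replicate block. Acsl4 lost its call with the replicate block (limma adjusted p = 0.0858). All tested genes called numbered 256 higher and 248 lower with no filter, 261 and 327 without the trend, and 300 higher with the replicate block (337 lower).

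The block used the numbers in the sample titles. Libraries with the same number did not deviate together (r = -0.018 over genes, which are not independent), and no label says that the numbers pair them.

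Differences of 12 members and of Sema6d, none of them called, changed sign in fits without 1 library. The ranges over those fits were -0.152 to 0.045 for Srebf2, -0.098 to 0.051 for Insig1, -0.268 to 0.059 for Insig2, -0.167 to 0.082 for Mvk, -0.055 to 0.11 for Idi1, -0.25 to 0.205 for Fdps, -0.543 to 0.021 for Fdft1, -0.035 to 0.033 for Nsdhl, -0.127 to 0.077 for Dhcr7, -0.02 to 0.088 for Stard4, -0.056 to 0.272 for Scd1, -0.092 to 0.012 for Fads1 and -0.204 to 0.049 for Sema6d. Nsdhl also changed sign under quantile normalization (0.005). The cause was not tested. Idi1, Elovl6, Scd1 and Fads2 were among the members with the fewest estimated fragments. Of these, Idi1 and Scd1 changed sign in those fits, and Elovl6 and Fads2 did not.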
